A study of Mus musculus with 24 samples.

Results

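The transcripts described here are those of the hippocampus of 18-month-old mice after 8 weeks with a running wheel, set against those of 18-month-old mice kept without one. The comparison rests on 8 of the 20 mice of the series, 4 aged exercise mice (numbers 2, 11, 16 and 19) and 4 aged sedentary mice (numbers 3, 7, 18 and 20), measured on 10 of its 24 arrays, since mouse 19 and mouse 3 were each hybridized on a second array. All of them were male and of the inbred BALB/c strain, all were housed 1 per cage for 8 weeks, and the cages of sedentary mice held no wheel at all. The cages with a wheel were also larger than those without. The remaining 12 mice, 6 adult exercise and 6 adult sedentary mice of 3.5 months, were housed in the same ways and serve here to set the running effect of aged mice against that of adult mice. Total RNA came from the whole hippocampus, so a value mixes all of its cell types, and a lower value from fewer cells of a type and from less RNA per cell cannot be told apart. Expression was read as the intensity of bead-bound probes on Illumina MouseWG-6 v2 arrays. The probes described are the 19806 of 45281 whose detection p was under 0.01 on the first array of at least 4 mice. Of these, 16978 carry 1 gene symbol, and they cover 10814 genes.

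Voluntary wheel running is a standard model of aerobic exercise in rodents. In the hippocampus, a structure needed for spatial and contextual memory, it is known to raise the formation of new granule neurons in the dentate gyrus and the level of brain-derived neurotrophic factor, a secreted protein that acts on synapses through the receptor TrkB. Aging lowers neurogenesis and raises the expression of complement and antigen presentation genes in glia, and whether running still acts on the transcripts of an old hippocampus is the question this comparison addresses.

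All values are normalized log2 intensities, on which a difference of 1 is a 2-fold ratio, and a running effect is the log2 value of exercise mice minus that of sedentary mice of the same age. Values of single mice are given in the order 2, 11, 16 and 19 for aged exercise and 3, 7, 18 and 20 for aged sedentary mice. A probe is called when the unadjusted p of its running effect in the limma fit over all 20 mice was under 0.005. The study's methods name 0.005 together with a false discovery rate adjustment, whereas here it is applied to p without adjustment. Intensities of different probes are not comparable as levels, so no gene is ranked against another by its value.

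Detection at p under 0.01 reached 18074 to 19068 probes in aged exercise and 17485 to 18964 probes in aged sedentary mice, a difference of 479 probes between the means (exact permutation test over 70 relabellings, two-sided p = 0.314, where 0.0286 is the smallest p possible). The 2 arrays of mouse 19 differed with an SD of 0.233 across probes (log2), those of mouse 3 with an SD of 0.206. Sedentary mouse 7 stood apart, with the lowest correlation with the other aged mice (0.980 to 0.990 across probes) and the lowest marker level of dentate granule neurons. Markers of tissue that borders the hippocampus also differed widely between mice, as described further on.

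Of the 19806 probes, 85 were called (0.429%), 57 with higher values in aged exercise mice (0.288%) and 28 with lower values (0.141%). A threshold of 0.005 admits 99.0 of 19806 probes where none differs, and after Benjamini-Hochberg adjustment no probe passed 0.05. The adjusted p of the 85 probes lay between 0.599 and 0.9998, and 856 probes (4.32%) had an unadjusted p under 0.05. The called probes are therefore the leading probes of a comparison in which no gene stood out after adjustment. Their running effects spanned 0.19 to 1.17 among increases and -0.59 to -0.19 among decreases. The groups of 4 did not overlap for 56 of the 85, beside 473 (2.39%) of all probes. As the 85 were picked by p on these same values, a high share among them follows from the choice. Of the 85, 78 carry 1 symbol, for 77 genes. Among the 41 called genes with more than 1 kept probe, all probes had the same sign in 30, and a second probe was called for 1 gene, Ldah. By the probe of highest mean value (the brightest probe), 53 of 10814 genes were called (0.49%), 31 higher and 22 lower. That share stands beside each count of called genes in a list below.

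Which probes were called depended on single mice, as the plot of calls with each aged mouse left out shows. Without exercise mouse 2 the count was 30, without exercise mouse 19 it was 50, and without sedentary mouse 7 it was 218. For the other 5 mice it was 68 to 124. Calls that held whichever of the 8 mice was left out numbered 13, of which 10 carry a symbol, the increases Wfs1, Wnt2, Npb, Tmem107, Abhd12, Dtna and H4c6 and the decreases Islr2, Nanos2 and Epc1.

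**Figure D1:**
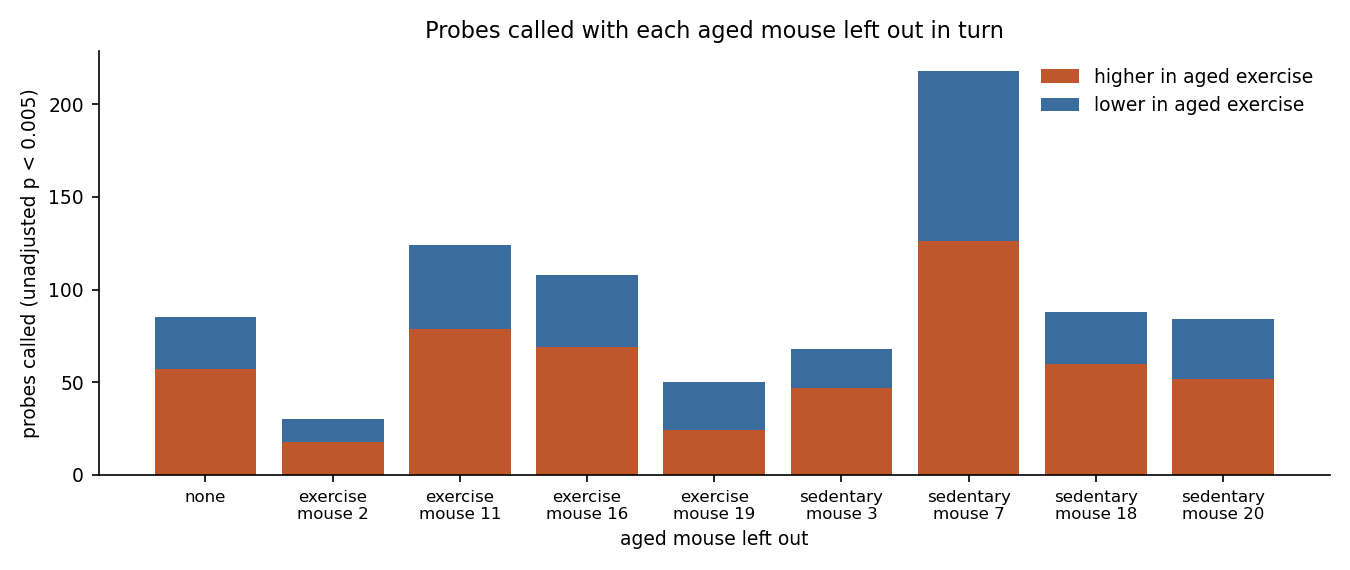
Number of probes called at an unadjusted p under 0.005 in aged mice (y axis) with no mouse or 1 aged mouse left out (x axis), stacked as probes higher and lower in aged exercise mice. The count was 85 with all 8 mice, 30 without exercise mouse 2 and 218 without sedentary mouse 7.

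Of the called increases, those of 3 secreted proteins are given first. Wnt2, a secreted ligand of the Wnt pathway, read 9.38, 8.58, 9.07 and 9.08 in aged exercise mice, against 7.94, 8.46, 8.43 and 8.20 in aged sedentary mice. Every runner lay above every sedentary mouse, and Wnt2 rose by 0.77 ± 0.18 (SE, unadjusted p = 0.000259 in limma). The effect of Wnt2 ranged over 0.65 to 0.92 with each mouse left out. Of 40 Wnt pathway genes, Wnt2 and Ccnd1 were called, both higher, and the median was -0.03 (0.02 with median scaling of the arrays). Of all 10814 genes, 31 (0.287%) were called higher. Npb, which encodes neuropeptide B, a ligand of G protein-coupled receptors, read 7.83, 7.06, 7.27 and 7.70 in aged exercise mice, against 7.07, 6.58, 6.55 and 6.53 in aged sedentary mice, a rise of 0.78 ± 0.18 (unadjusted p = 0.000279 in limma). Sedentary mouse 3 lay just above the lowest runner and the other 3 sedentary mice lay below all runners. Klk8, the gene of neuropsin, a secreted serine protease of the hippocampus, gave 11.39, 10.68, 10.80 and 11.40 in aged exercise mice and 10.52, 10.22, 10.70 and 10.45 in aged sedentary mice and rose by 0.59 ± 0.15 (unadjusted p = 0.000842 in limma). Runner 11 lay just below sedentary mouse 18, and the call of Klk8 was lost without mouse 2 or 19 (highest p 0.00584, with an effect of 0.49 without mouse 2).

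Bdnf, the gene of brain-derived neurotrophic factor, was among the increases nearest to the threshold. Its brightest probe read 10.47, 9.73, 10.04 and 10.28 in aged exercise mice, against 9.76, 9.47, 9.75 and 9.89 in aged sedentary mice. Runners 2, 16 and 19 lay above all sedentary mice and runner 11 lay among them. Bdnf rose by 0.41 ± 0.13 (unadjusted p = 0.00477 in limma), the call was lost without mouse 2, 16, 19, 3, 7 or 18, and the effect was 0.30 without mouse 2. The gene has 6 kept probes, with effects of 0.01 to 0.53, and no other of them was called. Of 27 measured neurotrophic and growth factor genes, Bdnf was the 1 called, and their median effect was 0.02, beside 0.00 and 51% positive effects for all 10814 genes, of which 53 (0.49%) were called by their brightest probe. Vgf, a neuropeptide precursor induced by neuronal activity and chosen after its values were seen, read 11.27, 11.48, 11.19 and 11.42 in aged exercise mice, against 10.67, 11.49, 10.69 and 10.87 in aged sedentary mice (0.41 ± 0.16, unadjusted p = 0.0209), where sedentary mouse 7 lay above all runners. Lefty1, a secreted antagonist of Nodal signalling, rose by 0.58 ± 0.18 with values of 9.19 to 10.03 in aged exercise mice and 8.88 to 9.39 in aged sedentary mice, and its call was lost without mouse 2, 16, 19, 7, 18 or 20 (effect 0.47 without mouse 2). Crhbp, which encodes a binding protein of corticotropin-releasing hormone, rose by 0.45 ± 0.13 (11.41 to 11.64 in aged exercise mice, against 10.67 to 11.41 in aged sedentary mice), and lost its call without mouse 16, 19, 3 or 18 (effect 0.32 without mouse 3).

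**Figure D2:**
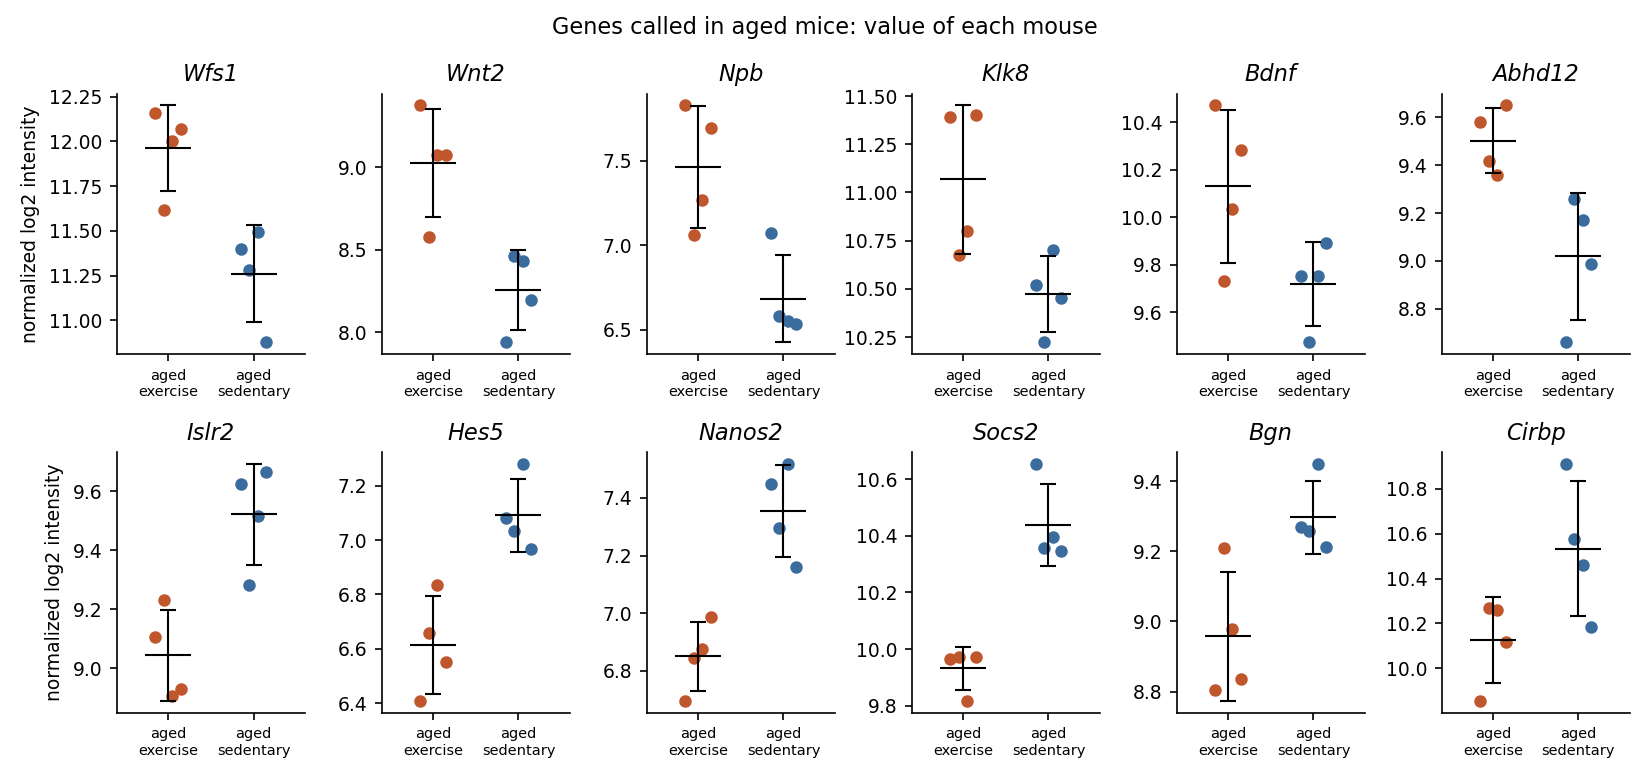
Normalized log2 intensity (y axes, each with its own range) of 12 genes called in aged mice, with 1 point for each of 4 aged exercise mice (left) and 4 aged sedentary mice (right), and the mean and SD as bars. The groups overlap for Npb, Klk8, Bdnf and Cirbp and lie apart for the other 8 genes.

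Among the markers of hippocampal pyramidal neurons, Wfs1 had the largest effect. It encodes wolframin, a membrane protein of the endoplasmic reticulum, and in mouse hippocampus it marks pyramidal neurons of field CA1. Its values were 12.16, 11.62, 12.00 and 12.07 in aged exercise mice and 11.40, 11.28, 11.49 and 10.88 in aged sedentary mice, with every runner above every sedentary mouse, and Wfs1 rose by 0.70 ± 0.15 (unadjusted p = 0.000147 in limma, 0.57 to 0.82 with each mouse left out). Of 7 CA1 pyramidal markers measured, Wfs1 was the 1 called, 6 had positive effects, and their median was 0.26 (0.10 without sedentary mouse 18). The summed intensity of these markers was 13125 to 17215 in aged exercise mice and 10399 to 15067 in aged sedentary mice. Mpped1, also a CA1 marker, read 12.24, 12.16, 12.10 and 12.33 in aged exercise mice, against 11.92, 12.36, 11.57 and 11.64 in aged sedentary mice (0.34 ± 0.18, unadjusted p = 0.0719), with sedentary mouse 7 above all runners. Whether a change in the share of CA1 tissue had a part in the rise of Wfs1 was not tested. Among 10 CA3 pyramidal markers, 3 had positive effects, their median was -0.14 (-0.03 without runner 16), and Socs2, which encodes a suppressor of cytokine signalling, was called. Socs2 fell by 0.51 ± 0.14, with 9.97, 9.97, 9.82 and 9.97 in aged exercise mice and 10.65, 10.36, 10.39 and 10.35 in aged sedentary mice. The value of runner 19 is the mean of 2 arrays that read 10.29 and 9.66, further apart than the effect itself. All runners lay below all sedentary mice, and the call of Socs2 was lost without mouse 16 or 3 (effect -0.43 without mouse 3). None of 9 dentate granule markers was called (median 0.05 with 5 positive, and -0.15 with 2 positive without sedentary mouse 7).

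Epha6, a receptor of ephrins, read 7.10, 6.68, 6.73 and 6.90 in aged exercise mice, against 6.04, 6.08, 6.42 and 6.15 in aged sedentary mice, without overlap, and rose by 0.68 ± 0.20. Its call was lost without mouse 2, 19, 3, 7 or 20 (highest p 0.0126, effect 0.60 without mouse 2). Htr1a, the serotonin receptor 1A, had values of 8.71 to 9.27 in aged exercise mice and 8.54 to 8.96 in aged sedentary mice and rose by 0.37 ± 0.12, as the 1 called gene of 38 for monoamine, acetylcholine and peptide signalling (median 0.08). The potassium channel genes Kcnab1, an auxiliary subunit, and Kcnk1, a 2-pore channel, rose by 0.34 ± 0.11 and 0.24 ± 0.08. Of 70 measured genes of voltage-gated and related channels, 46 had positive effects (median 0.07), Kcnk1 was called by its brightest probe, and Kcnab1 was called by another of its 3 probes. Nrxn3, a presynaptic adhesion protein, rose by 0.30 ± 0.09 (9.75 to 10.04 in aged exercise mice, against 9.39 to 9.72 in aged sedentary mice, without overlap), and Adgrl3, the adhesion receptor latrophilin 3, rose by 0.36 ± 0.11. The 6 probes of Adgrl3 spanned 0.08 to 0.36, with 1 called. Calls of these 5 genes were each lost without 3 to 6 of the 8 mice, and their effects without the mouse that mattered most were 0.31 for Htr1a, 0.28 for Kcnab1, 0.20 for Kcnk1, 0.23 for Nrxn3 and 0.31 for Adgrl3.

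Rasgrf1, an exchange factor that couples calcium to Ras, rose by 0.43 ± 0.12, and Prex2, an exchange factor of Rac that was detected in 4 of the 8 aged mice, by 0.55 ± 0.17. Other probes gave 0.05 to 0.12 for Rasgrf1 and -0.02 to 0.37 for Prex2, and none of them was called. Without the mouse that mattered most their calls were lost, at 0.35 for Rasgrf1 and 0.40 for Prex2. Dclk1, the doublecortin-like kinase of growing neurites and cargo transport, read 9.330, 9.003, 9.033 and 9.322 in aged exercise mice, against 8.286, 8.886, 8.503 and 8.974 in aged sedentary mice. All runners lay above all sedentary mice, and Dclk1 rose by 0.51 ± 0.16, while the other probes of the gene gave effects down to -0.09. Its call was lost without mouse 2, 19, 3 or 18 (effect 0.38 without mouse 3). Dtna, which encodes dystrobrevin alpha of the dystrophin complex, rose by 0.42 ± 0.10 with 9.59, 9.34, 9.33 and 9.64 in aged exercise mice and 9.04, 8.99, 9.17 and 9.02 in aged sedentary mice. Its groups did not overlap and its call held without any 1 mouse, although the 4 probes of Dtna spanned -0.10 to 0.42.

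Abhd12, a lipase of the endocannabinoid 2-arachidonoylglycerol and of lysophosphatidylserine, read 9.58, 9.42, 9.36 and 9.65 in aged exercise mice, against 8.66, 9.26, 9.17 and 8.99 in aged sedentary mice, without overlap. Abhd12 rose by 0.48 ± 0.11 (unadjusted p = 0.000272 in limma, 0.36 to 0.56 with each mouse left out), and its other probe gave 0.06. Lcat, the enzyme that esterifies cholesterol in lipoproteins, rose by 0.46 ± 0.12 (9.37 to 9.72 in aged exercise mice, against 8.84 to 9.45 in aged sedentary mice), and the call was lost without mouse 7 alone, at an effect of 0.36. Ldah, a hydrolase of lipid droplets, was called by 2 of its 4 probes, with effects of 0.26 and 0.22. The other probes of Ldah gave 0.06 and 0.01. Mttp, the microsomal transfer protein that loads lipoproteins with triglyceride, fell by 0.39 ± 0.12 and had its lowest value in runner 11 (5.80, 5.51, 5.63 and 6.17 in aged exercise mice, against 6.28, 6.16, 6.15 and 6.10 in aged sedentary mice). The groups of Mttp overlapped through runner 19, and the call held only when mouse 19 was the mouse left out (effect -0.31 without mouse 11).

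Of the remaining leading increases, Tmem107, a protein of the base of the primary cilium, read 6.26, 6.58, 6.33 and 6.18 in aged exercise mice, against 5.74, 5.73, 5.40 and 5.64 in aged sedentary mice, and rose by 0.71 ± 0.16 (unadjusted p = 0.000255 in limma) without overlap, while its other 2 probes gave -0.10 and 0.03. Ndst4, an enzyme that modifies heparan sulfate, read 6.34, 5.65, 6.16 and 6.15 in aged exercise mice, against 5.70, 5.01, 5.69 and 5.05 in aged sedentary mice, with runner 11 below sedentary mice 3 and 18, and rose by 0.71 ± 0.19. Ptges3l rose by 0.65 ± 0.17. Tmem107, Ndst4 and Ptges3l were detected in 5, 4 and 3 of the 8 aged mice, near the lower end of the measured range. The effects of the last 2 without the mouse that mattered most were 0.60 for Ndst4 and 0.52 for Ptges3l, with the calls lost. The largest effect among called probes belonged to a probe with no gene symbol in the platform table, ILMN_2528508, with 8.36, 7.33, 7.83 and 8.07 in aged exercise mice, against 6.78, 6.28, 6.86 and 6.99 in aged sedentary mice. It rose by 1.17 ± 0.22 (unadjusted p = 3.02e-05 in limma), the smallest p of the 19806 probes, and was named after its values were seen.

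Histone genes of the replication-dependent clusters, which supply nucleosome proteins during DNA synthesis, leaned higher in aged exercise mice as a group. Of 37 measured, 3 were called higher (H3c7, H4c17 and H4c6), none was called lower, 33 had positive effects and the median effect was 0.20. Over all genes, 0.287% were called higher, 51% were positive and the median was 0.00. H4c6 read 7.909, 7.697, 7.498 and 7.677 in aged exercise mice, against 6.934, 6.710, 7.420 and 7.351 in aged sedentary mice, and rose by 0.59 ± 0.15 (unadjusted p = 0.000703 in limma) without overlap. H3c7 read 6.69, 6.10, 6.02 and 6.34 in aged exercise mice, against 5.74, 5.07, 5.67 and 6.06 in aged sedentary mice, and rose by 0.66 ± 0.18, with runner 16 just below sedentary mouse 20. H4c17 rose by 0.61 ± 0.17 (6.22 to 6.50 in aged exercise mice, against 5.30 to 6.08 in aged sedentary mice). H3c7 was detected in 6 and H4c17 in 5 of the 8 aged mice, and H4c6 in all 8. A dimmer probe of H2bc6, not the one read for the list, was also called, with 8.37, 8.01, 8.22 and 8.33 in aged exercise mice, against 7.59, 7.05, 8.02 and 7.94 in aged sedentary mice, and a rise of 0.58 ± 0.16. Sedentary mouse 7 gave the lowest value for each of these 4 genes. Its mean level over the 37 genes was -0.37 relative to the 8 aged mice, against -0.08 to 0.01 in the other sedentary mice and -0.03 to 0.22 in the runners. Without mouse 7 the list median was 0.13, with 33 positive, and H3c7, H4c17 and H2bc6 were no longer called, at 0.38 for H2bc6 and 0.47 for H4c17. Genes of these clusters are near-identical in sequence, so a probe may read more than 1 of them. The study primed its cDNA with oligo(dT), so histone transcripts without a poly(A) tail are poorly covered by these values. Of 21 mitotic genes, which mark dividing cells, 9 were positive (median -0.04), and the cyclin gene Ccnd1, at 0.26 ± 0.08, was the 1 called. The 3 probes of Ccnd1 spanned 0.07 to 0.26. Of 9 histone variants, which are expressed outside DNA synthesis, 5 were positive (median 0.01).

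**Figure D3:**
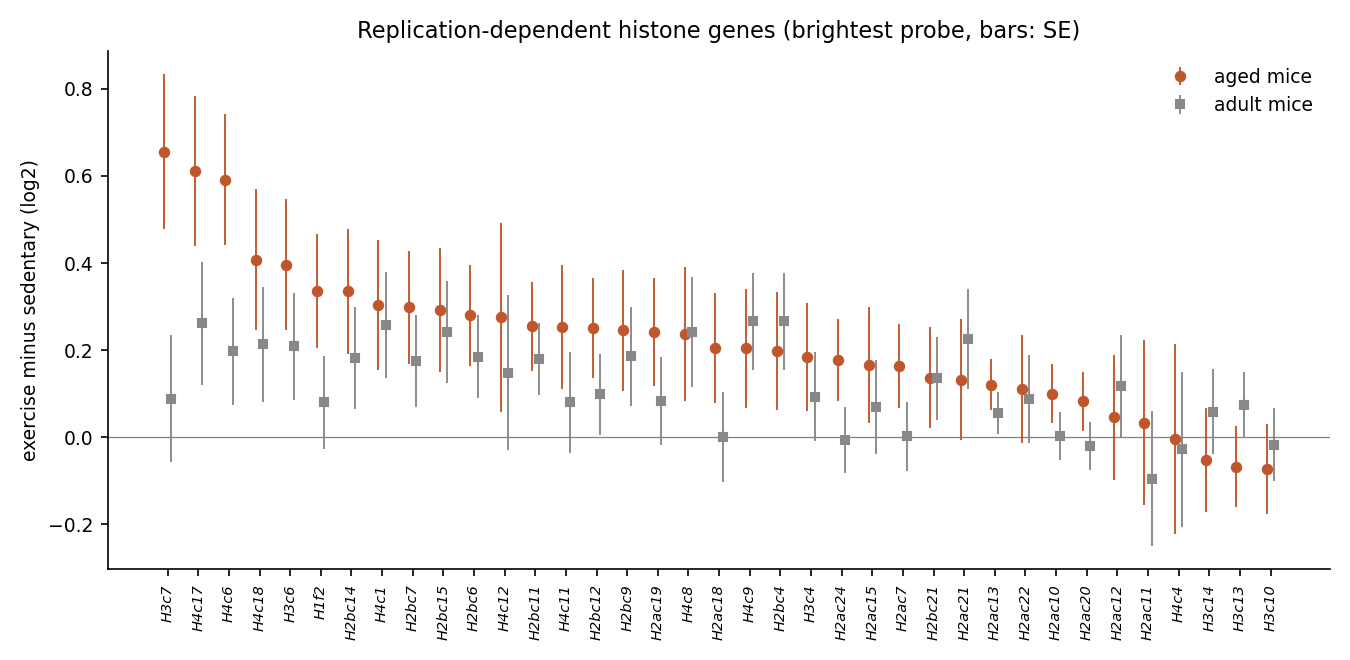
Running effect (exercise minus sedentary, log2, y axis) of 37 replication-dependent histone genes (x axis, ordered by the effect in aged mice) in aged mice (circles) and adult mice (squares), with bars of 1 SE. In aged mice 33 of 37 effects are above 0, in adult mice 32.

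The promoter window of H2bc6 is shown because it holds the octamer ATTTGCAT known from promoters of H2B genes, printed in capitals at bases -67 to -60 from the start. Each window shown here runs from 250 bases before to 50 bases after a gene's start. That of H2bc6 is on the minus strand (RefSeq, GRCm38.p6, chr13:23585921-23586220). The window is 1 of 2 given for the gene. The octamer, searched on both strands, is in 1.74% of 32851 such windows and in those of 2 of the 62 called genes with a window, H2bc6 and Nrxn3.
H2bc6: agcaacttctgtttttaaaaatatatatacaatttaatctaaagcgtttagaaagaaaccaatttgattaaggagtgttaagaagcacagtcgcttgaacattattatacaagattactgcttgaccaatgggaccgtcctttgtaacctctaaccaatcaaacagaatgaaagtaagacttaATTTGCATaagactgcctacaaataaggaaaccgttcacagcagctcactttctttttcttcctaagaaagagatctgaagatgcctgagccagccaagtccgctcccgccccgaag

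Chaperone genes gave smaller effects. Hsph1, which encodes a large heat shock protein of the cytosol that acts as an exchange factor for Hsp70, read 13.14, 12.83, 12.99 and 13.08 in aged exercise mice, against 12.67, 12.73, 12.82 and 12.81 in aged sedentary mice. The groups lay apart by a narrow margin, and Hsph1 rose by 0.25 ± 0.07 (unadjusted p = 0.00144 in limma). It was the 1 called gene of 41 cytosolic and mitochondrial chaperones, of which 27 were positive (median 0.05), and its call was lost without mouse 2, 19 or 3 (effect 0.21 without mouse 2). Of 29 genes for endoplasmic reticulum chaperones and the unfolded protein response, 22 were positive (median 0.06), and Wfs1 and Pdia6 were called. Of all genes, 0.287% were called higher. Pdia6, a protein disulfide isomerase, read 9.22, 9.15, 9.02 and 9.18 in aged exercise mice, against 8.75, 8.91, 9.01 and 8.93 in aged sedentary mice, and rose by 0.24 ± 0.07, with a call that was lost without mouse 2, 11, 19, 3, 7 or 20 (effect 0.19 without mouse 3). Its other probe gave -0.11. The related isomerase Pdia5 fell by 0.37 ± 0.10 (6.42, 6.33, 6.28 and 6.48 in aged exercise mice, against 6.57, 6.72, 6.86 and 6.84 in aged sedentary mice), and all runners lay below all sedentary mice. Rrbp1, a ribosome receptor of the rough endoplasmic reticulum, fell by 0.51 ± 0.15 (5.36, 5.61, 5.55 and 5.58 in aged exercise mice, against 5.87, 6.33, 5.94 and 5.99 in aged sedentary mice), but it was detected in 3 of the 8 aged mice and its 3 probes spanned -0.51 to -0.00. Without the mouse that mattered most, the effect was -0.33 for Pdia5 and -0.41 for Rrbp1, with the calls lost.

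The windows of Hsph1 and Pdia6 are shown because each holds a motif known for its stress pathway, in capitals. In 1 of 2 windows of Hsph1 (RefSeq, GRCm38.p6, chr5:149636287-149636586, minus strand) it is the heat shock element, searched as TTC, GAA and TTC with 2 bases between each, at bases 37 to 49 after the start, found on either strand in 0.603% of 32851 windows and, among called genes, in Hsph1 alone. In Pdia6 (chr12:17266339-17266638, plus strand) it is the endoplasmic reticulum stress element, searched as CCAAT and CCACG with 9 bases between them, at bases -98 to -80, found in 0.119% of windows and, among called genes, in Pdia6 alone, and a match is a description of letters only. It overlaps a CCAAT box, a motif in 37.4% of all windows.
Hsph1: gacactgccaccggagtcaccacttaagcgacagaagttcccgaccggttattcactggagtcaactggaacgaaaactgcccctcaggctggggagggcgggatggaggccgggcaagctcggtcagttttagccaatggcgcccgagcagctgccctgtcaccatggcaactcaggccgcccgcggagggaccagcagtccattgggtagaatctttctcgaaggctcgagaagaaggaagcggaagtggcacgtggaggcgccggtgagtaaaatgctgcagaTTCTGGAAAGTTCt
Pdia6: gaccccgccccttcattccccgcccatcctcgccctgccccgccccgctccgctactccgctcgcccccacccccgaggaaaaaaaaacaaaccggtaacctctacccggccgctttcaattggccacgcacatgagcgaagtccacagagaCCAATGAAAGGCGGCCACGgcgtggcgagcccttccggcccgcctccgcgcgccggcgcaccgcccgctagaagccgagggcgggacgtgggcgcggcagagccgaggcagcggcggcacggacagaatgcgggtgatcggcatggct

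The largest decrease among called probes was that of Tmem114, a membrane protein. It read 9.01, 8.86, 8.71 and 9.29 in aged exercise mice, against 9.57, 9.07, 10.19 and 9.40 in aged sedentary mice, and fell by 0.59 ± 0.17 (unadjusted p = 0.00259 in limma), but runner 19 lay above sedentary mouse 7 and the call was lost without mouse 11, 16, 3 or 18 (effect -0.38 without mouse 18). Islr2, a leucine-rich repeat membrane protein known from axon growth, read 9.11, 9.23, 8.91 and 8.93 in aged exercise mice, against 9.62, 9.28, 9.52 and 9.67 in aged sedentary mice. All runners lay below all sedentary mice, and Islr2 fell by 0.48 ± 0.12 (unadjusted p = 0.000608 in limma, -0.56 to -0.43 with each mouse left out). Nanos2, an RNA-binding protein known from male germ cells, read 6.70, 6.84, 6.88 and 6.99 in aged exercise mice, against 7.45, 7.29, 7.52 and 7.16 in aged sedentary mice, without overlap, and fell by 0.50 ± 0.11 (unadjusted p = 0.000111, the smallest among genes with a symbol).

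Hes5, a transcriptional repressor that Notch signalling induces in neural progenitors and astrocytes, read 6.41, 6.66, 6.84 and 6.55 in aged exercise mice, against 7.08, 7.03, 7.28 and 6.97 in aged sedentary mice, and fell by 0.48 ± 0.13 without overlap. Its other probe gave -0.46. On the called probe, the 2 arrays of runner 19 read 6.31 and 6.79. The call was lost without mouse 2, 19 or 18 (effect -0.41 without mouse 2). Mycl, of the Myc family of transcription factors, fell by 0.48 ± 0.14 (9.57 to 9.88 in aged exercise mice, against 9.77 to 10.68 in aged sedentary mice), at -0.32 without mouse 3. Epc1, a subunit of a histone acetyltransferase complex, fell by 0.25 ± 0.06 with 9.06 to 9.18 in aged exercise mice and 9.29 to 9.41 in aged sedentary mice, and held its call without any 1 mouse. Tbc1d9b and D430041D05Rik fell by 0.32 ± 0.09 and 0.46 ± 0.14. Of 23 genes of immature neurons and neurogenesis, none was called by its brightest probe and 10 were positive (median -0.01).

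Acta2, the actin of smooth muscle, read 9.32, 9.79, 9.74 and 9.81 in aged exercise mice, against 10.14, 9.98, 10.48 and 10.07 in aged sedentary mice, without overlap, and fell by 0.50 ± 0.13 (unadjusted p = 0.00124 in limma). Its 4 probes spanned -0.50 to -0.32, the lowest value was that of runner 2, and the call was lost without mouse 2 or 18 (effect -0.38 without mouse 2). Of 13 mural cell markers, Acta2 was the 1 called and 6 were positive (median -0.03). Bgn, the matrix proteoglycan biglycan, fell by 0.34 ± 0.09 (8.81, 9.21, 8.98 and 8.84 in aged exercise mice, against 9.27, 9.26, 9.45 and 9.21 in aged sedentary mice), as the 1 called gene of 38 for matrix and collagens, of which 27 were negative (median -0.13). Lmna, the lamin of the nuclear envelope, fell by 0.32 ± 0.09 (9.87 to 10.23 in aged exercise mice, against 10.10 to 10.56 in aged sedentary mice), and all 6 probes of Lmna were negative (-0.32 to -0.13). Without the mouse that mattered most, the effect was -0.29 for Bgn and -0.25 for Lmna, with the calls lost. The mean level of 11 meningeal and fibroblast markers, which include matrix genes, differed between the mice as well. It was -0.40, 0.80, -0.27 and -0.97 in aged exercise mice, against 0.14, -0.13, 0.28 and 0.56 in aged sedentary mice, relative to the mean of the 8. Its part in the decreases of Acta2, Bgn and Lmna was not tested.

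Slc38a2, a transporter of neutral amino acids, read 10.64, 10.94, 10.64 and 10.53 in aged exercise mice, against 10.92, 11.06, 10.89 and 11.38 in aged sedentary mice, and fell by 0.37 ± 0.11, with runner 11 above sedentary mice 3 and 18. The other probe of Slc38a2 gave -0.14. Slc6a6, the taurine transporter, fell by 0.20 ± 0.06 (11.69 to 11.94 in aged exercise mice, against 11.93 to 12.10 in aged sedentary mice). Cirbp, an RNA-binding protein induced by mild cold, read 9.86, 10.27, 10.26 and 10.12 in aged exercise mice, against 10.91, 10.58, 10.46 and 10.18 in aged sedentary mice, overlapped through sedentary mouse 20, and fell by 0.41 ± 0.12. It was the 1 gene called by its brightest probe among 23 cold-response and splicing kinase genes (median -0.04). Clk4, a kinase of splicing factors, was called by another of its 4 probes, with 9.68, 9.75, 9.63 and 9.79 in aged exercise mice, against 9.94, 10.11, 9.94 and 10.09 in aged sedentary mice, and fell by 0.30 ± 0.08 without overlap. The uncalled probes of Clk4 gave -0.16 to -0.03. Clk1, a related kinase, gave -0.25 ± 0.10 (unadjusted p = 0.0241) and was not called. Rps15a, a protein of the small ribosomal subunit, fell by 0.22 ± 0.07, and 40 of 53 ribosomal protein genes were negative, at a median of -0.03, whereas with median scaling of the arrays 37 of 53 were positive, at 0.04. Without the mouse that mattered most, the calls of these 5 genes were lost, with effects of -0.27 for Slc38a2, -0.16 for Slc6a6, -0.28 for Cirbp, -0.28 for Clk4 and -0.18 for Rps15a. The other called decreases with a symbol were -0.29 for Dctn4, -0.28 for Snhg12, -0.25 for Hgh1, -0.25 for Zfyve21, -0.20 for Slc25a28, -0.19 for Get4 and -0.19 for Syf2. For Dctn4 the 2 arrays of runner 19 read 8.51 and 8.09. The count of decreases also depended on the scaling of the arrays. With each array scaled to a common median in place of quantiles, 80 probes were called higher and 7 lower, beside 57 and 28, and the median effect of all genes was 0.06, beside 0.00. Rrbp1, Hes5, Nanos2, Tmem114, Acta2 and Islr2 were among the decreases called under that scaling.

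Clk4 is shown with its window (RefSeq, GRCm38.p6, chr11:51262864-51263163, plus strand), which holds the cAMP response element TGACGTCA at bases -65 to -58, in capitals, because Clk4 is among the genes called at both ages. The motif is in 1.79% of 32851 windows and in those of 5 of 62 called genes, 2310033P09Rik, Clk4, Ldah, Shisa5 and Tyw1, of which Clk4 alone fell.
Clk4: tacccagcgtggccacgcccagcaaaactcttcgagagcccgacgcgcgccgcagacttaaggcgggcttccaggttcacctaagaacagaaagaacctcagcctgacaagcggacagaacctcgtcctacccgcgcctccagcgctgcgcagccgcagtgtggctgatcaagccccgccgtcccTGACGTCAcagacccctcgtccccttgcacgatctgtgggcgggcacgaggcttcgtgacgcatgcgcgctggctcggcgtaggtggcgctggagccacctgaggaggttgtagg

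Gene groups known from neuronal activity, daily rhythm and stress held 1 called gene or none. None of 27 immediate early genes was called, and their median of -0.02 was 0.04 with median scaling and 0.18 without sedentary mouse 7. Fos and Arc, induced by neuronal activity and chosen after their values were seen, gave -0.02 ± 0.32 and 0.12 ± 0.36, and sedentary mouse 7 was the highest of the 8 mice for both. Among 18 clock genes, Arntl, the activator also known as Bmal1, read 9.64, 9.59, 9.42 and 9.57 in aged exercise mice, against 9.02, 9.15, 9.39 and 8.84 in aged sedentary mice, and rose by 0.45 ± 0.13 with a narrow gap between the groups, while its call was lost without mouse 2, 11, 19, 3 or 20 (effect 0.37 without mouse 20). The other clock genes were not called, and the list median was -0.11. Of 21 genes that glucocorticoids induce, none was called, 17 were negative and the median was -0.16 (13 negative, median -0.08, without sedentary mouse 20). The largest effects in it were those of Plin4, a lipid droplet protein, at -0.99 ± 0.43 (7.40, 7.32, 7.70 and 7.08 in aged exercise mice, against 8.31, 8.18, 6.65 and 10.33 in aged sedentary mice, unadjusted p = 0.0322), where sedentary mouse 20 was the highest and sedentary mouse 18 the lowest of all, and of Xdh, xanthine dehydrogenase, at -0.57 ± 0.23. The SDs of Plin4 were 0.26 in aged exercise and 1.51 in aged sedentary mice. Its SE, from the variance shared by all 20 mice, does not reflect that spread. Pdk4, a kinase that restrains pyruvate use and also a glucocorticoid target, gave -0.39 ± 0.13 (unadjusted p = 0.00696).

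Immune genes held no call in aged mice, and those of MHC class I and of complement had mostly negative effects. Of 15 genes for MHC class I and peptide loading, 13 were negative (median -0.20). H2-D1, a classical class I heavy chain, read 10.35, 10.75, 9.98 and 9.56 in aged exercise mice, against 10.29, 10.69, 10.31 and 10.37 in aged sedentary mice (-0.25 ± 0.20, unadjusted p = 0.207), and B2m, its light chain, gave -0.14 ± 0.17 (0.06 without runner 19). Runner 19 had the lowest values of both genes, and without it 9 of the 15 genes were negative and the list median was -0.05. Of 10 complement genes, 9 were negative (median -0.13, and -0.04 without sedentary mouse 20), and C4b, a complement component made by glia, read 9.49, 9.67, 9.43 and 9.39 in aged exercise mice, against 10.13, 9.32, 9.82 and 9.90 in aged sedentary mice (-0.30 ± 0.12, unadjusted p = 0.0235), with sedentary mouse 7 lower than all runners. Interferon-stimulated genes were near balance, with 10 of 23 positive and 13 negative (median -0.02), and the largest effect among them was that of Isg15, a ubiquitin-like protein, at 0.43 ± 0.17 (unadjusted p = 0.0208). Genes of oxidative phosphorylation were positive in 57 of 72 cases, at a median of 0.04 and with no call, and without sedentary mouse 3 in 40 of 72 at 0.01.

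The study named 33 genes by RT-PCR or in its table of genes of age and exercise, apart from a histone gene whose symbol and name disagree there, and 30 of them had a kept probe. By the brightest probe of each, Bdnf and Ccnd1 were called higher and Lmna, Slc38a2 and Slc6a6 lower in aged mice, and 15 effects were positive and 15 negative. Another probe was called for Dclk1 and Abhd12, both higher, and for Clk4, lower, as given above. The list was chosen on these same mice, so its counts are no independent evidence. Gpx8, a peroxidase of the endoplasmic reticulum and 1 of the RT-PCR genes, gave -0.23 ± 0.24. Igf1r, the receptor of insulin-like growth factor 1, gave -0.27 ± 0.09 (unadjusted p = 0.00831), Vwf, the von Willebrand factor of endothelium, -0.50 ± 0.21 (unadjusted p = 0.0274), Ahnak -0.36 ± 0.15, and Tubb2b, a tubulin of young neurons, 0.18 ± 0.08 (unadjusted p = 0.0274).

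Hippocampal markers were present throughout, with Wfs1 for CA1, Prox1 for dentate granule neurons and Grik4 for CA3 detected in all 8 aged mice. Markers of the choroid plexus, the secretory epithelium that lies against the hippocampus in the ventricle, were present too and varied most. Their summed intensity over 15 genes was 6320 to 58307 in aged exercise mice and 4720 to 62894 in aged sedentary mice, a 13.3-fold range over the 8. Ttr, transthyretin, read 12.38, 15.54, 14.90 and 12.01 in aged exercise mice, against 15.61, 10.60, 15.46 and 15.57 in aged sedentary mice. Ttr was low in runners 2 and 19 and in sedentary mouse 7 and high in the other 5 mice. All 15 markers had negative running effects in aged mice (median -0.68), from -0.26 for Kl to -1.15 for Clic6, none was called, and the groups overlapped for each. The 15 markers share 1 tissue source in each mouse, so they are not 15 separate observations. Markers of thalamus and habenula spanned 8245 to 22435 in aged exercise mice and 9078 to 20773 in aged sedentary mice, with runner 19 and sedentary mouse 7 lowest. Those of striatum spanned 2829 to 6920 in aged exercise mice and 3411 to 9863 in aged sedentary mice. Those of neocortex and subiculum spanned 13693 to 15913 and 10751 to 20230, with sedentary mouse 7 highest. With the choroid plexus level as a covariate, chosen after the data were seen, 60 of the 85 probes were called, and 80 of 85 with the dentate granule level. The 11 meningeal markers were all negative (median -0.39), with Ogn, a small matrix proteoglycan, at -0.87 ± 0.36 and Mgp, the matrix Gla protein, at -0.61 ± 0.28. Without runner 19 their median was -0.13 with 3 positive.

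**Figure D4:**
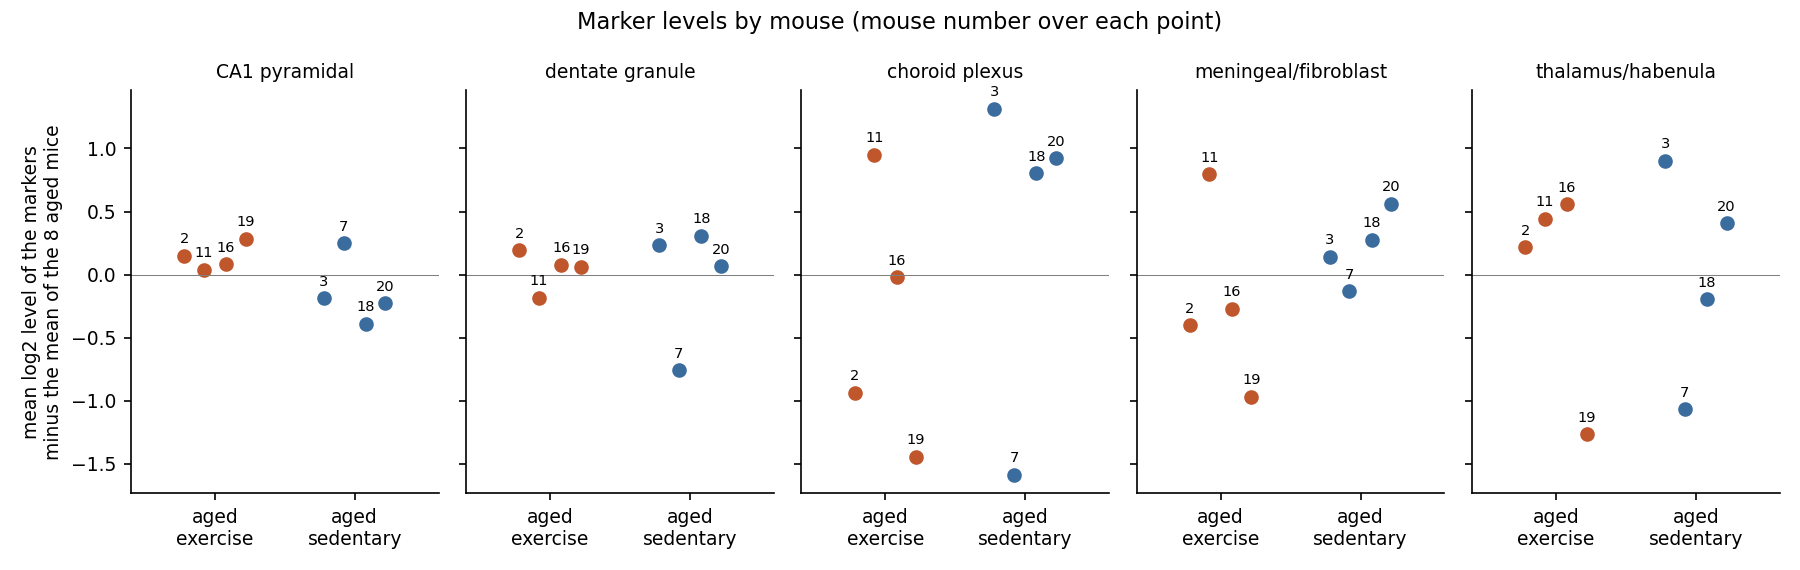
Mean log2 level of the markers of 5 tissues or cell types in each mouse minus the mean of the 8 aged mice (y axis), for aged exercise (left) and aged sedentary mice (right) in each panel, with the mouse number over each point. Choroid plexus markers run from -1.59 in sedentary mouse 7 to 1.31 in sedentary mouse 3, and the dentate granule level of mouse 7 is -0.76.

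Running effects in aged mice were then set against those in adult mice, which share no animal with them. In the fit over all mice, however, both effects of a probe were tested against the same residual variance. A low variance favours a low p at both ages, so the calls and p-values of the 2 ages are not independent. The study also reports that aged mice ran less per day than adult mice. Age and distance run therefore cannot be told apart when effects of the 2 ages are compared. In adult mice 221 probes were called (1.12%) with 6 mice per group. Of the 85 aged calls, 75 had the same sign in adult mice, beside 61.2% of all probes, and 34 of 85 (40%) had an unadjusted p under 0.05 in adult mice with the same sign, beside 7.98% of all probes with such a p in adult mice in either direction. Probes called at both ages numbered 11, all with the same sign, which are 12.9% of the aged and 4.98% of the adult calls. They are Wfs1, Wnt2, Klk8, Bdnf, Hsph1 and Gskip among increases, Tmem114 and Clk4 among decreases, and ILMN_2528508, ILMN_1251841 and ILMN_1251302, which carry no symbol, among increases. Of these, ILMN_1251841, whose call also held without any 1 aged mouse, was detected in only 2 of the 8 aged mice. Across the 19806 probes the effects at the 2 ages correlated at r = 0.355, a description over probes that are not independent. When each age was fitted alone, with a residual variance of its own, 45 probes were called in aged and 235 in adult mice, 6 of them in both.

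**Figure D5:**
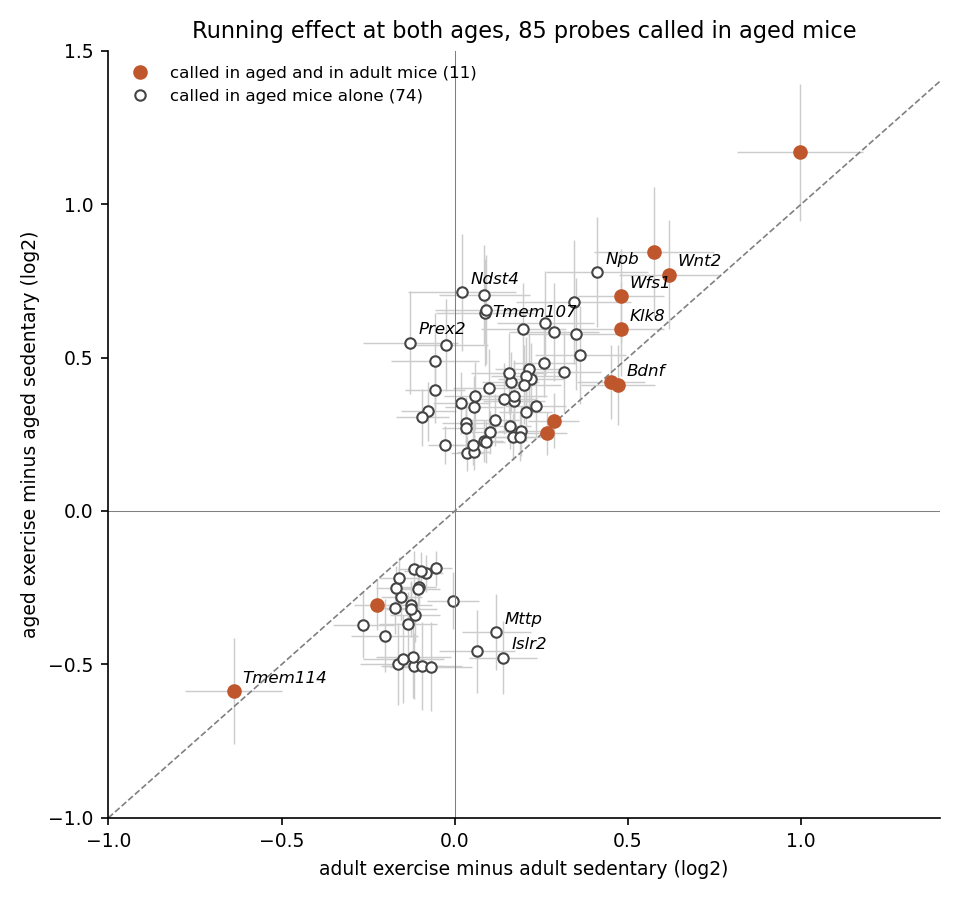
Running effect in aged mice (y axis, log2) against that in adult mice (x axis, log2) for the 85 probes called in aged mice, with bars of 1 SE and a dashed line of equal effects. The 11 filled points were called at both ages, and 75 of the 85 points have the same sign on both axes.

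For none of these 11 probes was the difference between the ages called, and their effects stand side by side here. Wfs1 rose by 0.70 ± 0.15 in aged mice and by 0.48 ± 0.12 in adult mice, where runners read 11.89 to 12.20 and sedentary mice 11.27 to 12.12 (difference of the effects 0.22 ± 0.20, unadjusted p = 0.276). Wnt2 rose by 0.77 in aged mice and by 0.62 ± 0.14 in adult mice (difference 0.15 ± 0.23). Bdnf rose by 0.41 in aged mice and by 0.47 ± 0.11 in adult mice, in which runners (10.04 to 10.55) and sedentary mice (9.57 to 9.91) lay apart (difference -0.06 ± 0.17). Klk8 rose by 0.59 and 0.48 ± 0.13, Hsph1 by 0.25 and 0.27 ± 0.06, and Gskip, a protein that binds the kinase GSK3, by 0.29 and 0.29 ± 0.07, in aged and adult mice. Tmem114 fell by 0.59 in aged mice, with an effect of -0.64 ± 0.14 in adult mice, and Clk4 by 0.30, with -0.22 ± 0.07 in adult mice. The choice of these probes by their calls keeps large effects, so the sizes are descriptions.

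Direct tests of the difference between the ages called 26 probes (0.131%), fewer than the 99.0 that the threshold admits where none differs. None passed 0.05 after adjustment, and 387 (1.95%) had an unadjusted p under 0.05. Among the genes named for this difference, Islr2 had the smallest p, with -0.48 in aged mice and 0.14 ± 0.10 in adult mice (difference -0.62 ± 0.15, unadjusted p = 0.000608), and it was also called for the running effect in aged mice. Cbln1, a synapse organizer that parallel fibers and thalamic neurons secrete, had 0.60 ± 0.31 in aged mice and -0.87 ± 0.25 in adult mice (difference 1.47 ± 0.40), and Tshz2, a zinc finger transcription factor, 0.83 ± 0.48 and -1.31 ± 0.39 (difference 2.14 ± 0.62). Tshz2 separated the groups without overlap (8.60 to 8.97 in aged exercise mice, against 7.18 to 8.51 in aged sedentary mice). Nrep, a neuronal protein of regeneration, gave 0.34 in aged and -0.46 in adult mice, Ubxn2a 0.34 and -0.16, and Cryz 0.26 and -0.21. In the other direction stood Sec22a (-0.21 in aged and 0.28 in adult mice), St3gal4, a sialyltransferase (-0.39 and 0.27), Zfp652 (-0.23 and 0.41) and Tial1, an RNA-binding protein (-0.19 and 0.20). The other 9 of these 10 genes were not called in aged mice. With an aged mouse left out, the difference stayed under the threshold for Islr2, Cbln1, Nrep, Sec22a and St3gal4, while the call was lost for at least 1 mouse for Tshz2 (1.88 without sedentary mouse 3), Ubxn2a (0.42 without runner 11), Cryz (0.44 without sedentary mouse 7), Zfp652 (-0.60 without sedentary mouse 7) and Tial1 (-0.31 without sedentary mouse 18). The replication-dependent histones had a median of 0.20 in aged and 0.10 in adult mice, with no called difference. None of the markers of neighbouring tissue was called in aged mice by its brightest probe. Their medians were -0.68 in aged and -1.07 in adult mice for choroid plexus and -0.02 and -0.24 for thalamus and habenula. For striatum they were -0.20 in aged and 0.11 in adult mice, and for neocortex and subiculum 0.08 and -0.14. The part of these tissues in the differences was not tested.

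The aged sedentary mice also enter the age contrast, aged sedentary minus adult sedentary, in which 377 probes were called (1.9%), 42 of them after adjustment. Because the running effect and the age contrast share these 4 mice with opposite signs, their values are given side by side, with no test of a relation between them. Wfs1 gave a running effect of 0.70 and an age effect of -0.32, Dclk1 0.51 and -0.53, Abhd12 0.48 and -0.44, H3c7 0.66 and -0.80, Nanos2 -0.50 and 0.61, Slc38a2 -0.37 and 0.42, Islr2 -0.48 and 0.12, and Bdnf 0.41 and -0.04. With the same sign in both, Tmem114 gave -0.59 and -0.50, Acta2 -0.50 and -0.18, and Nrxn3 0.30 and 0.13. The signs were opposite for 79 of the 85 called probes, a count that the shared mice favour.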

How the data were processed

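Total RNA from the hippocampus of 20 mice was hybridized on 24 arrays. The authors deposited a table of non-normalized probe intensity values with a detection p-value for each array, read out with the gene expression module of GenomeStudio, and a table of normalized values on a log2 scale, made with lumi per the labels and methods. The intensity table was used, and the deposited log2 table served as an alternative (the lowest correlation between the 2 versions of an array was 0.985). Groups were taken from the labels. Intensities were background-corrected and quantile-normalized with neqc (offset 16, with detection p-values standing in for negative controls) and log2-transformed in R 4.3.3 with limma 3.58.1, and the second array of a mouse was averaged with its first. Probes were kept at a detection p under 0.01 on the first arrays of at least 4 mice. The group means of all 20 mice were fitted with lmFit and eBayes with an intensity trend (16 residual degrees of freedom), and the contrasts were the running effect in aged mice, that in adult mice, their difference, and age among sedentary mice. Tests were two-sided and adjusted by Benjamini-Hochberg over all 19806 probes. P-values measure the spread between these mice, and 4 mice per group limit the precision. The scripts were tested on simulated data. Figures were drawn with Python 3.11.15 and matplotlib 3.10.9.

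Symbols came from the platform annotation, which gives 7 kept probes several symbols and 2821 none. A gene in a list was read by its brightest probe. Named genes were the 15 largest increases and 15 largest decreases among called probes with 1 symbol, the 5 smallest p of the difference between ages in each direction, called or leading members of a described list, genes named in the study, genes called at both ages and defining markers. Other called genes with known roles, Arc, Fos, Vgf, Pdk4, Mpped1, Nos1, Avp and Rab26 were added after their values were seen. The members and lists were chosen with earlier results of these data known. Alternatives changed the background correction, scaling, filter, repeats, samples fitted, weights, trend and threshold and left out each aged mouse, and 2 covariates and separate fits by age were added after seeing the data. The slide of an array is not given in the sources used here, so the array-slide term of the study's model was not fitted. Body weight, running distance and RT-PCR were not analysed here. Promoter windows are RefSeq's, for GRCm38.p6, and 62 of 77 called genes matched.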

Additional observations from a re-analysis of the deposited data

Results flagged for a closer look

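Of 130 groups of 4 mice examined for a mouse far from the other 3, 10 had one by Dixon's criterion, and chance gives about 1 in 20. The gap of that mouse to its nearest neighbour, as a share of the group's range, was 0.908 for Npb in sedentary mouse 3, which was the highest, 0.958 for Socs2 in runner 16, the lowest, and 0.838 for Socs2 in sedentary mouse 3, the highest. It was 0.859 for Acta2 in runner 2, the lowest. Among the Socs2 values of runners, that of runner 19 was the mean of 2 arrays that read 10.29 and 9.66. Xdh was far lower in sedentary mouse 18 (0.85), and sedentary mouse 7 was far lower for Ttr (0.97), for the chloride channel gene Clic6 (0.898) and for vasopressin, Avp (0.901). Nos1, the neuronal nitric oxide synthase, was far higher in runner 19 (0.914), although all 4 runners (7.21 to 7.42) lay below all 4 sedentary mice (7.49 to 8.07). Runner 16 stood apart by its count of detected probes (0.846).

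The difference between the ages was called for 26 probes (unadjusted p under 0.005 in limma), fewer than the 99.0 admitted where none differs. After adjustment 0 probes passed, and 387 had an unadjusted p under 0.05. The 5 genes of smallest p in each direction follow. The aged effect exceeded the adult effect by 2.14 for Tshz2, 1.47 for Cbln1, 0.80 for Nrep, 0.495 for Ubxn2a and 0.47 for Cryz. The difference was -0.665 for St3gal4, -0.643 for Zfp652, -0.618 for Islr2, -0.49 for Sec22a and -0.389 for Tial1.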

How the results depend on the processing

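No called probe changed sign under any alternative that kept it. Leaving out 1 aged mouse gave 30 to 218 called probes (18 to 126 higher, 12 to 92 lower), 16 to 75 that differed between ages and 6 to 25 called at both ages, beside 85, 57, 28, 26 and 11. The extremes of called probes came without runner 2 and without sedentary mouse 7. Weighting arrays by their quality, which gave mouse 7 a weight of 0.417, called 176 probes, 115 higher and 61 lower, with 41 differing and 37 called at both ages. With no detection filter 161 probes were called, 95 higher and 66 lower, and 101 differed. The 8 aged mice fitted alone gave 45 calls, 26 of them higher. Median scaling called 80 higher and 7 lower. With the dentate granule level as a covariate, 43 were lower, 49 differed and 21 were called at both ages. First arrays alone gave 7 called at both ages, separate fits by age 6, and an adjusted p under 0.05 gave 0 called probes, beside 856 at an unadjusted p under 0.05. Of the 85 calls, 54 held with median scaling, 57 with first arrays alone, 25 with aged mice alone, 60 with the choroid plexus covariate and 66 to 83 with the other settings that kept all mice and tested all 85. Fos, at -0.02, gave 0.0286 with median scaling, 0.0929 with array weights and 0.0483 with the dentate covariate, and -0.267 to 0.309 with each mouse left out. Arc ranged over -0.168 to 0.471 and B2m over -0.302 to 0.0607 in the same way, and Ttr gave 0.49 with the choroid plexus level as a covariate. The cause of these changes was not tested. No paired analysis was possible because mouse numbers are not shared between the groups. Dim genes near the detection limit, such as Ptges3l, Rrbp1 and Ndst4, are measured least well.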

Other observations

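Some gene groups not described above leaned one way without a call in aged mice. Of 25 glutamate receptor genes 18 were positive (median 0.06), and of 17 glycolysis genes 13 (median 0.04). Among 31 proteasome genes 22 were negative (median -0.02), whereas with median scaling 24 were positive (median 0.05), and of 16 endothelial markers 11 were negative (median -0.09). Rab26, a small GTPase of vesicles, read 10.68, 10.86, 10.69 and 11.13 in aged exercise mice, against 11.24, 11.17, 11.37 and 11.41 in aged sedentary mice (-0.46 ± 0.16, unadjusted p = 0.0102 in limma). Avp, the vasopressin precursor, read 6.75, 7.14, 6.88 and 7.12 in aged exercise mice, against 6.55, 5.01, 6.69 and 6.53 in aged sedentary mice (0.78 ± 0.34, unadjusted p = 0.0300), where the groups lay apart and sedentary mouse 7 was far below the other 7 mice. Markers of astrocytes, microglia and myelinating oligodendrocytes had medians of 0.01, -0.03 and -0.02, and none of these 53 genes was called.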
